A study of Mus musculus with 66 samples.

Results

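The genes described are 10 linked to the removal of reactive oxygen species: Cat, Sod1, Sod2, Gpx1, Gpx4, Prdx1, Prdx2, Prdx3, Txn1 and Txnip. Txnip differs from the rest in that its product restrains thioredoxin. The genes were chosen by name, and all 10 were found among the 24062 genes of a deposited RNA-seq table of mouse female germ cells and oocytes. The table holds 66 libraries in 24 groups, of which 18 have 3 biological replicates and 6 have 2. In vivo cells came from ovaries of stella-ECFP reporter mice of the strain C57BL/6 x B6D2F1, as germ cells at E14.5, E16.5 and E18.5 (embryonic days) and as oocytes at P1 and P3 (postnatal days), with oocytes at P4 and P6 split into small and large. In vitro cells of the strain C57BL/6 X 129/SvJ were made from embryonic stem cells (ESCs). Primordial germ cell-like cells carrying Blimp1-mVenus were aggregated with frozen-thawed E12.5 gonadal somatic cells into reconstituted ovaries, which received the Rock inhibitor Y-27632 at the start of culture. These cells were collected on culture days (D) 5, 7, 9, 10, 11, 13, 15, 17 and 20, and are labelled germ cells up to D11 and oocytes from D13. A further set at D21 came from wild-type (WT) ESCs or from ESCs with the Foxo3dNES transgene (Tg), each cultured under normoxia (air), under hypoxia (5% O2), or with no oxygen condition in the label. The labels do not give the promoter that drives the transgene or the number of ESC clones. The in vivo and in vitro cells differ in strain as well as in culture, and these cannot be told apart.

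Superoxide, which leaks from the respiratory chain, is converted to hydrogen peroxide by superoxide dismutases: SOD1 in the cytosol and SOD2 in the mitochondrial matrix. Hydrogen peroxide is then removed by catalase (Cat) in peroxisomes, by glutathione peroxidases, which draw on glutathione, and by peroxiredoxins, which are recharged by thioredoxin. GPX4 is the glutathione peroxidase that reduces lipid peroxides in membranes, and the thioredoxin-binding protein TXNIP holds thioredoxin in an inactive form and restrains glucose uptake. Oocytes rest for long periods in primordial follicles, and growing oocytes build up large stores of RNA, proteins and mitochondria.

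Depth was 13888938 to 23188562 reads assigned to genes in the in vivo libraries, 14675044 to 22807730 in the D5 to D20 libraries and 4843643 to 21261797 at D21, where the 4 libraries with no oxygen label had at most 8719895. Every member had at least 30 reads in every library, the lowest being Cat. Values are in RPM, reads per 1000000 reads, a share of each library that is not divided by gene length. All 12 oocyte markers were detected in every group, and their summed level was 1777 to 43337 RPM. Erythroid markers, listed because red blood cells hold much catalase, GPX1 and PRDX2, summed to no more than 26.1 RPM in any library. Germ cells at D9 to D11 also carried 370 to 881 RPM of granulosa markers, 219 to 1994 RPM of stroma and theca markers and 33.7 to 542 RPM of immune markers. The D5 library of replicate 2 and the WT normoxia library of replicate 2 stood apart from their replicates in several members. For members, the comparisons that use them are also given without them, as counts or log2 changes. Group means, ranges, gene lists and correlations include them.

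In the tests below a gene changed when its adjusted p was below 0.05 in limma's moderated test on log2(RPM + 1), with Benjamini-Hochberg adjustment over all genes kept. Log2 changes are on that scale and carry the standard error (SE). Rescaling each library by the median of its ratios to a reference moved the median log2 change of all genes by more than 0.1 in most comparisons, so members were also tested after it. No change that passed the test reversed its direction under rescaling. In bulk RNA, fewer cells of a type and less RNA per cell cannot be told apart.

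Prdx2, a cytosolic peroxiredoxin, had the widest range: its group means ran from 20.8 RPM at E18.5 to 792 RPM at D15, a 38.1-fold span. Gpx1, a cytosolic glutathione peroxidase, spanned 18-fold, from 9.70 RPM at E16.5 to 175 RPM in WT D21 normoxia. Cat spanned 14.7-fold, from 3.16 RPM at D20 to 46.5 RPM at D11, and Gpx4 spanned 10.2-fold, from 28.0 RPM at E16.5 to 287 RPM at D13. Prdx3, the mitochondrial peroxiredoxin, spanned 8.04-fold, from 9.76 RPM at E16.5 to 78.4 RPM at P3. Txnip spanned 7.68-fold, from 75.1 RPM at E14.5 to 577 RPM at P1, and Txn1, the cytosolic thioredoxin, spanned 6.95-fold, from 13.4 RPM at E16.5 to 93.1 RPM in WT D21 normoxia. The narrowest spans were those of Sod2 (5.72-fold, highest at E14.5 with 192 RPM), Prdx1 (4.61-fold, highest at D13 with 1478 RPM) and Sod1 (3.32-fold, lowest at D7 with 334 RPM). The top place of WT D21 normoxia for Gpx1 and Txn1 rests on its replicate 2, whose values are given below. With the 24 groups ordered by mean, neighbouring groups overlapped in 15 to 21 of the 23 pairs for each gene, so single steps in these orders are mostly within the spread of the libraries. Per kilobase of the longest coding transcript, Sod1 was the most abundant member in all 24 groups, between 520 and 1729 RPM per kb. On the same per-kilobase scale Cat was the lowest in 20 groups and Sod2 in the other 4.

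The genes lie on GRCm38, in RefSeq coordinates, at chr2:103453904-103485153 (Cat), chr16:90220762-90226333 (Sod1), chr17:13007839-13018119 (Sod2), chr9:108339080-108340342 (Gpx1), chr10:80047166-80056439 (Gpx4), chr4:116685599-116700000 (Prdx1), chr8:84969622-84974811 (Prdx2), chr19:60864066-60874538 (Prdx3), chr4:57943373-57956411 (Txn1) and chr3:96557957-96561857 (Txnip). In the GENCODE annotation, exons of Prdx2 share 350 bases with Junb and Rnaseh2a on the opposite strand, and those of Txnip share 606 bases with the antisense gene Gm15441. The strand setting of the counting is not given in the sources used here, so reads in these stretches could have been assigned to either gene. Gm15441 stayed between 0.961 and 10.2 RPM in all 66 libraries. Rnaseh2a lay between 12.2 and 85.7 RPM and Junb between 0.824 and 246 RPM. Both were below Prdx2 in large oocytes, but Junb was close to Prdx2 where Prdx2 was low. Junb averaged 20.5 ± 2.30 RPM at E16.5 and 18.7 ± 7.36 RPM at E18.5, against 22.5 ± 1.18 and 20.8 ± 3.09 RPM of Prdx2 (SD, n = 3). At D11 Junb averaged 149 ± 86.0 RPM and Prdx2 151 ± 25.6 RPM, and at D13 Junb was at 4.18 ± 1.10 RPM. The doubt about strand therefore bears most on the low fetal values of Prdx2 and on its values at D10 and D11, and the share of reads assigned to the wrong gene was not tested.

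**Figure D1:**
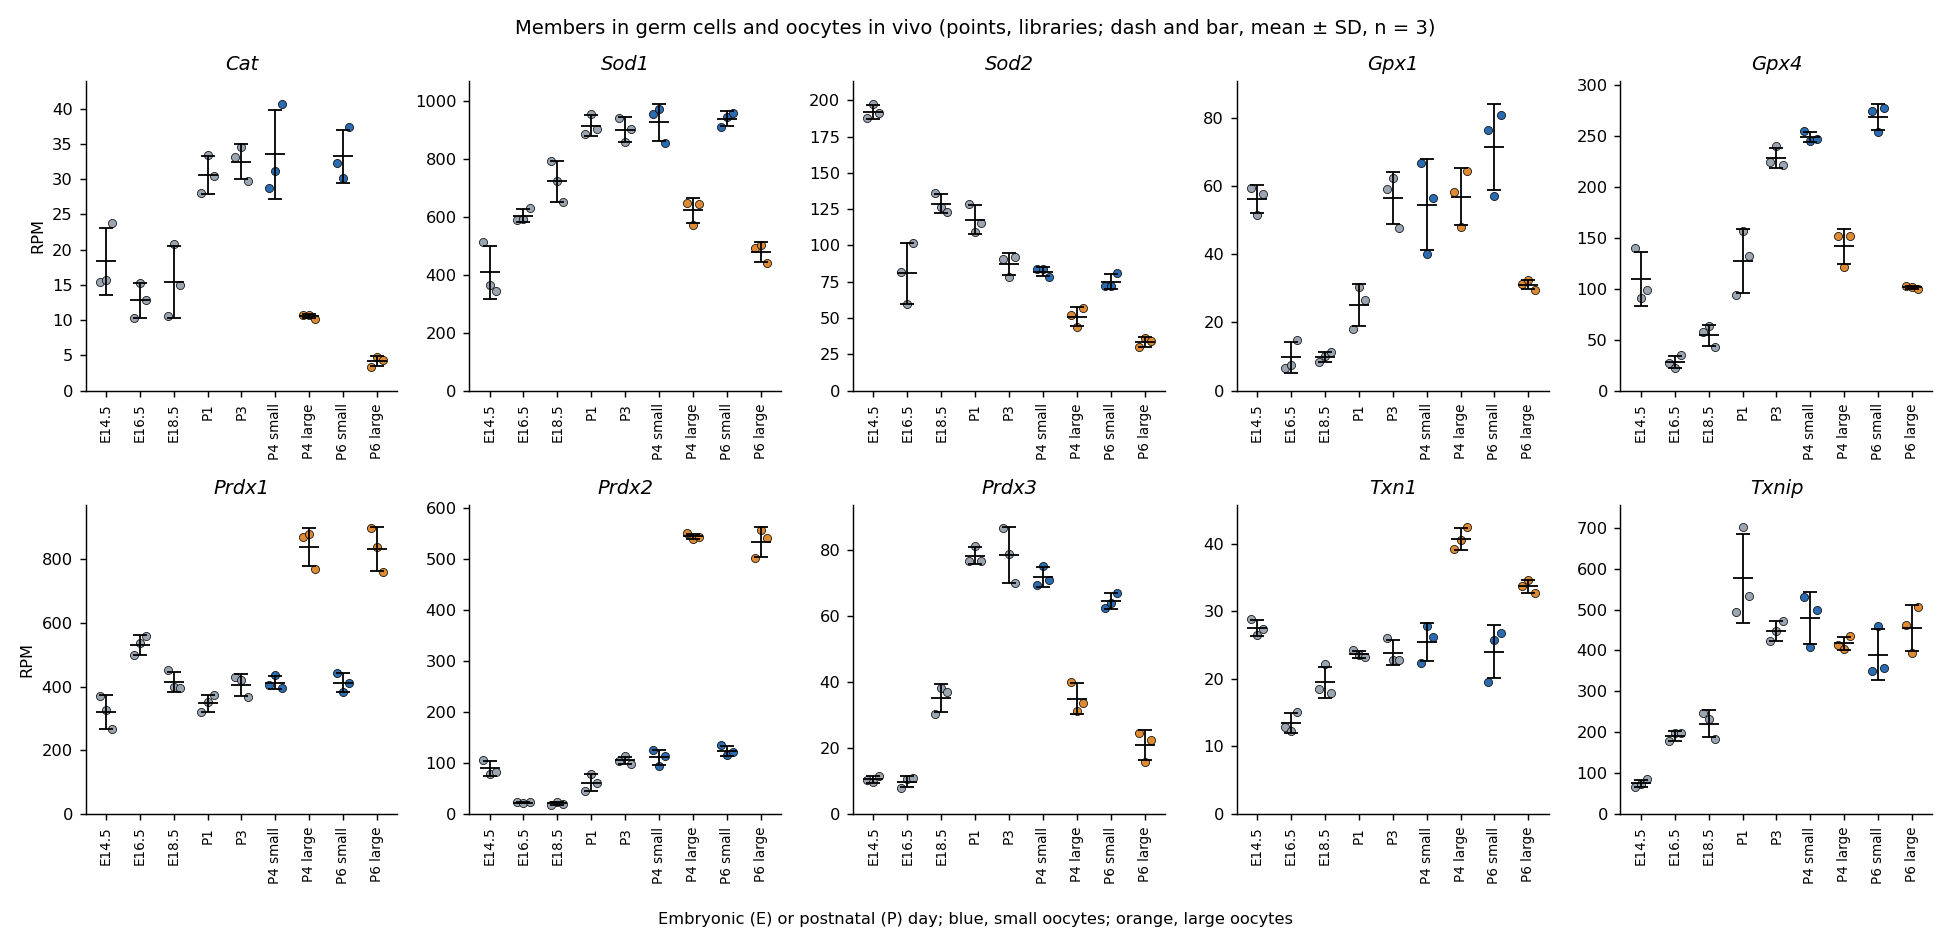
Level of each member in RPM (linear axes from 0) in the 9 in vivo groups, with each library as a point and the mean ± SD (n = 3) as dash and bar. Gpx1, Gpx4 and Prdx2 dip at E16.5 and E18.5, and at P4 and P6 Prdx1, Prdx2 and Txn1 are the members higher in large (orange) than in small (blue) oocytes, with no overlap.

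In fetal germ cells the glutathione peroxidases and Prdx2 went down together while Prdx3, Txnip and Sod1 went up. From E14.5 to E18.5, 4 members rose and 5 fell. Over all 15401 genes tested, 40% rose and 30% fell, so a change as such is common in this comparison. After rescaling, 3 members rose and 6 fell. Gpx1 was at 59.5, 51.4 and 57.7 RPM at E14.5 and at 8.32, 10.1 and 11.3 RPM at E18.5, a log2 change of -2.40 (SE 0.22, limma adjusted p = 4.34e-10). Prdx2 was at 107, 78.7 and 83.0 RPM at E14.5 and at 18.2, 24.2 and 19.9 RPM at E18.5, a log2 change of -2.05 (SE 0.14, limma adjusted p = 1.78e-12). Both genes were lower in all 3 libraries of E18.5 than in any of E14.5. Gpx4 (log2 change -0.99), Sod2 (-0.57) and Txn1 (-0.48) also fell, the call on Txn1 being lost in a fit of all 66 libraries (limma adjusted p = 0.0751). Summed erythroid markers were at most 0.742 RPM at E14.5 and reached 26.1 RPM later in the fetal series. Markers of somatic cells were also higher after E14.5. Summed granulosa markers went from 39.8 to 59.4 RPM at E14.5 up to 163 to 198 RPM at E16.5 and 86.9 to 151 RPM at E18.5. Summed stroma and theca markers went from 11.3 to 14.6 RPM up to 54.9 to 102 RPM and 42.1 to 82.3 RPM. The part of red blood cells and of somatic cells in the fetal changes was not tested.

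Prdx3 rose from 10.4, 9.56 and 11.6 RPM at E14.5 to 30.3, 38.1 and 36.8 RPM at E18.5, with no overlap (log2 change 1.64, SE 0.14, limma adjusted p = 9.8e-11). Txnip rose from 67.1, 73.6 and 84.7 RPM to 246, 233 and 184 RPM (log2 change 1.54, SE 0.13, limma adjusted p = 1.46e-10). Sod1 rose by 0.84 on the log2 scale. Prdx1 rose by 0.38, but after rescaling its log2 change was 0.16 and did not pass the test. Cat, at 15.4, 15.8 and 23.8 RPM and then 10.6, 20.8 and 14.99 RPM, overlapped between the 2 stages and did not pass.

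Most of the fetal decline lay between E14.5 and E16.5, a comparison added after the group values had been seen. There 3 members rose and 6 fell (42.7% and 24.6% of all genes). Of all calls 63.4% were higher, and 51.5% after rescaling. After rescaling 3 members rose and all 7 others fell. Gpx1 reached 6.70, 7.49 and 14.9 RPM at E16.5 and Gpx4 26.9, 22.3 and 34.8 RPM, log2 changes of -2.49 and -1.93. Prdx2 (log2 change -1.94), Sod2 (-1.27) and Txn1 (-0.99) also fell. Cat fell too (-0.48, limma adjusted p = 0.0332), a call that was lost without E14.5 replicate 3 (-0.28), E16.5 replicate 1 (-0.34) or E16.5 replicate 3 (-0.49). Prdx3, at 7.79, 10.6 and 10.9 RPM at E16.5, overlapped with E14.5 and did not pass before rescaling. Sod1, Prdx1 and Txnip rose.

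Around birth Gpx1, Gpx4, Prdx2 and Txn1, which had fallen from E14.5 to E18.5, rose. Prdx3, Txnip and Sod1 rose in both intervals and Sod2 fell in both. The means of Gpx4 and Txn1 were already higher at E18.5 (54.4 and 19.5 RPM) than at E16.5 (28.0 and 13.4 RPM), a step not tested. The fall of Sod2 was not steady. Its mean was 192 RPM at E14.5, 80.7 RPM at E16.5, 129 RPM at E18.5 and 87.1 RPM at P3. From E18.5 to P3, 8 members rose and 1 fell, against 26% and 32.3% of all genes, and rescaling left both counts the same. Prdx2 rose 5.06-fold to 104, 113 and 98.4 RPM, above all E18.5 libraries (log2 change 2.29, SE 0.14, limma adjusted p = 2.18e-12). Gpx1 rose 5.70-fold to 59.2, 62.4 and 47.8 RPM (log2 change 2.40, SE 0.22, limma adjusted p = 1.85e-09), overlapping the E14.5 libraries. Gpx4 rose 4.20-fold to 224, 240 and 221 RPM, Prdx3 2.24-fold to 86.6, 78.8 and 69.9 RPM, and Cat 2.10-fold to 33.1, 34.6 and 29.7 RPM. Txnip rose by 1.03 on the log2 scale; its highest libraries were at P1, at 495, 701 and 534 RPM. The changes of Sod1 (0.32) and Txn1 (0.28, limma adjusted p = 0.0416) were small. The call on Sod1 was lost without E18.5 replicate 3 (0.25), and the call on Txn1 without E18.5 replicate 1 or 3 or any 1 of the P3 libraries (0.22 to 0.31). Sod2 was the member that fell (log2 change -0.56). Prdx1, at 451, 398 and 395 RPM and then 430.2, 420.0 and 366 RPM, overlapped and did not pass.

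The other genes of the pathway in this interval are given by list, where 26% of all genes rose and 32.3% fell. Of 12 genes of glutathione synthesis and recycling 8 rose and 2 fell. In the thioredoxin, peroxiredoxin and glutaredoxin list, 12 of 22 rose and 7 fell, and among other glutathione peroxidases and transferases 8 of 15 rose and 5 fell. In the NRF2 pathway and NADPH supply 6 of 22 rose and 8 fell (6 and 7 after rescaling), and in superoxide, metal and radical defence 3 of 11 rose and 5 fell (3 and 4). Of 10 selenoprotein synthesis genes 4 rose and 2 fell, and in the TXNIP family 3 of 7 rose and 2 fell (3 and 1). The glutaredoxin Glrx rose from 1.76 ± 0.34 to 47.2 ± 11 RPM, and the glutathione transferase Gsta4 from 13.1 ± 6.1 to 299.7 ± 21 RPM (SD, n = 3). Prdx4, the peroxiredoxin of the endoplasmic reticulum, went the other way, from 257 ± 24 to 71.8 ± 8.2 RPM. Sepp1, which encodes the selenium carrier selenoprotein P, rose from 7.21 ± 1.4 to 103 ± 12 RPM.

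Small and large oocytes of the same age differed in most members, in both directions, and so did most of all genes tested. The comparison asks how oocytes of different size differ at one age. At P6, 6 members were higher in small oocytes and 3 in large ones. Of all genes tested, 51.3% were higher in small and 22.1% higher in large oocytes. After rescaling, which moved the median log2 change of all genes from 0.41 to 0.01, 6 members were higher in small and 4 in large oocytes, and 49.2% of all calls were in the direction of small oocytes rather than 69.9%. Cat, Prdx3, Gpx4, Gpx1, Sod2 and Sod1 were the 6 members higher in small oocytes under both scalings.

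Cat stood at 32.2, 30.1 and 37.3 RPM in small P6 oocytes and at 3.35, 4.74 and 4.40 RPM in large ones, 7.98-fold apart (log2 change 2.73, SE 0.19, limma adjusted p = 2.62e-12). Prdx3 stood at 62.5, 63.9 and 67.0 RPM against 24.6, 15.7 and 22.5 RPM (log2 change 1.60, SE 0.14, limma adjusted p = 1.17e-10). The small and large libraries did not overlap for either gene. Gpx4 was at 274, 254 and 278 RPM in small against 103, 102 and 99.96 RPM in large oocytes (log2 change 1.39, SE 0.17). Gpx1 was at 76.4, 57.2 and 80.8 RPM against 31.3, 32.3 and 29.5 RPM (log2 change 1.16, SE 0.22). Both dismutases were higher in small oocytes. Sod2 was 2.23-fold higher, at 71.8, 72.0 and 81.1 against 29.9, 36.5 and 34.5 RPM, and Sod1 1.96-fold, at 909.5, 945 and 959 against 492, 503 and 439 RPM.

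Prdx2 was the reverse, at 135, 116 and 122 RPM in small against 502, 558 and 541 RPM in large P6 oocytes. It was 4.29-fold higher in the large ones (small minus large log2 change -2.09, SE 0.14, limma adjusted p = 8.51e-13). Prdx1, the other main cytosolic peroxiredoxin, was at 441, 382 and 411 RPM in small against 896, 837 and 761 RPM in large oocytes (log2 change -1.01, SE 0.10, limma adjusted p = 1.76e-09). The thioredoxin Txn1, which recharges them, was 1.40-fold higher in large oocytes, with all 3 large libraries between 32.7 and 34.5 RPM and the small ones between 19.5 and 26.8 RPM. That call was lost in a fit of all 66 libraries (limma adjusted p = 0.0713). Junb, which overlaps Prdx2, had the opposite pattern, with 39.5 ± 9.71 RPM in small against 1.92 ± 0.693 RPM in large oocytes (SD, n = 3). Txnip overlapped between sizes at P6 and did not pass (log2 change -0.23, limma adjusted p = 0.129). After rescaling it was lower in small oocytes (log2 change -0.81).

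**Figure D2:**
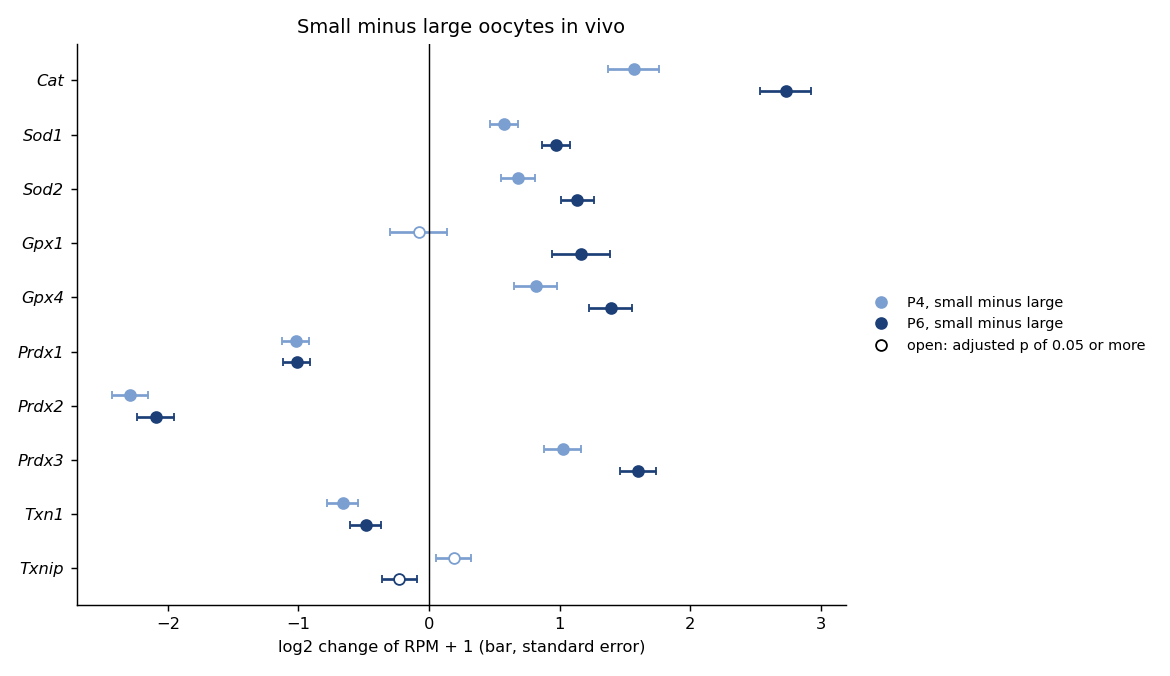
Log2 change (small minus large oocytes) of each member at P4 and at P6, with SE as bars and open circles where the adjusted p is 0.05 or more. Cat, Prdx3, Gpx4, Sod2 and Sod1 lie to the right at both ages and Prdx1, Prdx2 and Txn1 to the left, while Gpx1 lies to the right at P6 only, a difference between ages that was tested.

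At P4, 5 members were higher in small and 3 in large oocytes, where 48.7% and 20.5% of all genes were. Of all calls 70.4% were higher in small oocytes, and 49.7% after rescaling. The members' count depended on the scaling: after rescaling 2 members were higher in small and 4 in large oocytes, and the differences in Sod1 (log2 change 0.57, then 0.13), Sod2 (0.68, then 0.24) and Gpx4 (0.82, then 0.37) no longer passed. Cat was at 28.7, 31.2 and 40.7 RPM in small against 10.7, 10.7 and 10.2 RPM in large oocytes (log2 change 1.57, SE 0.19, limma adjusted p = 9.66e-08). Prdx3 was at 69.3, 75.0 and 70.8 RPM against 40.1, 31.2 and 33.6 RPM (log2 change 1.02). Prdx2 was already at 551, 540 and 545 RPM in large against 125, 95.04 and 114 RPM in small oocytes (log2 change -2.29, SE 0.14). Gpx1 overlapped between the sizes, at 66.8, 40.2 and 56.5 RPM in small against 58.2, 47.8 and 64.5 RPM in large oocytes.

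The size difference was larger at P6 than at P4 for Cat, by 1.17 on the log2 scale (SE 0.27, limma adjusted p = 0.0101), and for Gpx1, by 1.24 (SE 0.31, limma adjusted p = 0.0145). The same test passed for 8.52% of all genes, with 69.1% of calls higher, and 36.9% after rescaling. For Gpx1 the call rested on 1 library: without P4 large replicate 3 the adjusted p was 0.0508. Large oocytes had lower means at P6 than at P4, 4.16 and 10.5 RPM for Cat and 31.0 and 56.8 RPM for Gpx1. In small oocytes the means at P6 and P4 were 33.2 and 33.5 RPM for Cat and 71.5 and 54.5 RPM for Gpx1. The other 8 members showed no difference between ages that passed.

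Markers of other cells differed between the sizes as well. Summed granulosa markers were 34.9 to 69.7 RPM in the 6 small and 273 to 353 RPM in the 6 large libraries of P4 and P6. Summed stroma and theca markers were 12.1 to 35.4 RPM in small and 2.93 to 6.00 RPM in large oocytes, and oocyte markers were 10092 to 11911 RPM against 27134 to 31365 RPM. Of the 17 granulosa markers 1 was at 0 in the small groups and up to 2 in the large ones. The part of these cells in the size differences was not tested.

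The other genes of the pathway at P6 are given by list. Of all genes, 51.3% were higher in small and 22.1% in large oocytes, so the counts after rescaling are given beside each. Of the 22 other thioredoxin, peroxiredoxin and glutaredoxin genes 16 were higher in small and 3 in large oocytes (11 and 4 after rescaling), with a median log2 change of 0.91 against 0.41 over all genes. Prdx4 was at 42.7 ± 5.3 RPM in small against 6.74 ± 1.1 RPM in large oocytes, and the sestrin Sesn1 at 28.9 ± 5.1 and 5.37 ± 0.8 RPM (SD, n = 3). In the superoxide, metal and radical defence list 9 of 11 were higher in small oocytes and none in large ones (8 and 1 after rescaling). Among them Ccs, the copper chaperone that loads SOD1, was at 97.1 ± 5.0 against 17.2 ± 2.1 RPM. Aifm2, which regenerates ubiquinol against lipid peroxidation, was at 35.0 ± 1.3 against 4.75 ± 0.86 RPM. In the list of selenoprotein synthesis and selenium supply, on which the selenium enzymes GPX1 and GPX4 depend, 9 of 10 were higher in small oocytes (6 higher and 1 lower after rescaling). Sepp1 led it with 115 ± 14 RPM in small against 0.752 ± 0.21 RPM in large oocytes.

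Glutathione synthesis and recycling was split, with 5 of 12 genes higher in small and 3 in large oocytes (5 and 6 after rescaling). Glutathione reductase, Gsr, was at 132 ± 21 RPM in small against 23.3 ± 5.0 RPM in large oocytes (SD, n = 3), and glutathione synthetase, Gss, at 24.4 ± 2.3 and 4.65 ± 1.4 RPM. Ggct, which breaks down gamma-glutamyl peptides, was higher in large oocytes, at 242 ± 29 against 72.0 ± 31 RPM. Of the 22 genes in the list of the NRF2 pathway and NADPH supply 14 were higher in small and 4 in large oocytes (11 and 6 after rescaling). They included the ferritin gene Ftl1 at 572 ± 44 against 132 ± 20 RPM and, in the other direction, the malic enzyme Me1 at 33.7 ± 13 against 313 ± 119 RPM. The other glutathione peroxidases and transferases had 8 of 15 genes higher in small and 4 in large oocytes (7 and 5 after rescaling). The TXNIP family and its sugar-responsive regulators had 2 of 7 higher in small and 3 in large oocytes (2 and 5 after rescaling). Among the arrestin relatives of Txnip, Arrdc3 was at 212 ± 10 RPM in small against 19.7 ± 4.1 RPM in large oocytes and Arrdc4 at 23.0 ± 0.72 and 2.81 ± 0.73 RPM, while Arrdc1 was at 28.1 ± 5.8 and 107 ± 28 RPM.

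Promoter windows from RefSeq (build GRCm38.p6), which span each transcription start, were matched for all 10 members, in 13 windows. They were searched on both strands for TGACNNNGC, the core of the antioxidant response element bound by NRF2, for GTAAACA, a FOXO element, and for ACGTG, the core of a HIF element. TGACNNNGC was found in Prdx1 and Sod1 and in 12.4% of all 32851 windows. GTAAACA was found in Txnip and in 3.65% of all windows, and ACGTG in Gpx1 and in 19.6% of all windows. The stretches around the first 3 matches are shown because Prdx1 and Sod1 carry the same element but differ in direction between small and large oocytes, and because Foxo3 is the gene altered at D21. Capitals mark the match, which in Prdx1 and Sod1 is read on the opposite strand; all are 100 bases, written 5′ to 3′ on the plus strand.
Prdx1, chr4:116685419-116685518: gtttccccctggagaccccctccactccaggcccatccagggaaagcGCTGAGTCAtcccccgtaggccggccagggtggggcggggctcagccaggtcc
Sod1, chr16:90220654-90220753: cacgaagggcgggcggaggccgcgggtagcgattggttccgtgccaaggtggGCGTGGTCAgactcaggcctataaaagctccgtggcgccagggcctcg
Txnip, chr3:96557787-96557886: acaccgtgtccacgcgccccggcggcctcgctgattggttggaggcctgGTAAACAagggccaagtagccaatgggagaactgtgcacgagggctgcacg
A match describes letters in the window and shows no binding.

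**Figure D3:**
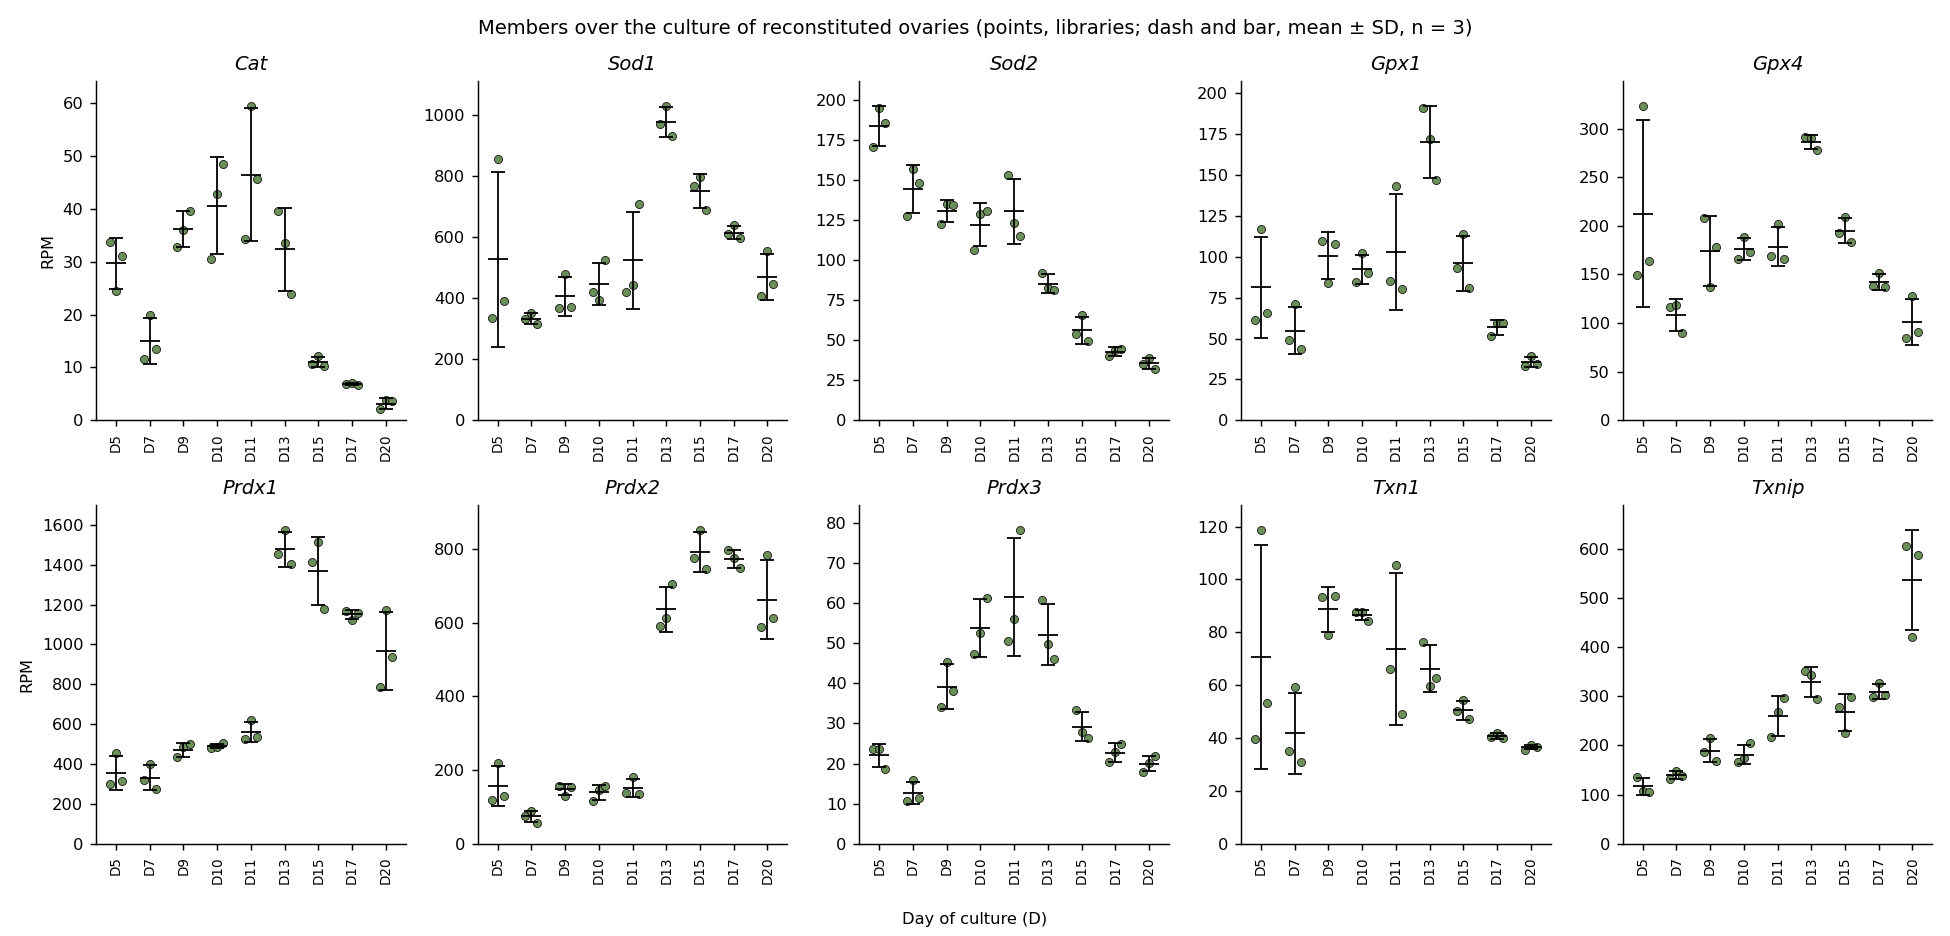
Level of each member in RPM (linear axes from 0) over the 9 days of the D5 to D20 culture, with each library as a point and the mean ± SD (n = 3) as dash and bar. Prdx1 and Prdx2 step up between D11 and D13, and Prdx2 stays high to D20. Cat, Gpx1, Gpx4, Sod1, Sod2, Prdx3 and Txn1 decline from D13 to D20, as does Prdx1, which stays above its D11 level.

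From D5 to D11 the members changed at about the share of all genes. There 4 members rose and 1 fell, against 31.2% and 15% of all genes, and 3 rose and 1 fell after rescaling. Of all calls 67.5% were higher, and 56.6% after rescaling. Prdx3 rose from 23.7, 23.7 and 18.7 RPM to 50.7, 56.0 and 78.4 RPM, with no overlap (log2 change 1.43, SE 0.18, limma adjusted p = 5.6e-07). Txnip rose from 136, 107 and 106 RPM to 216, 269 and 297 RPM (log2 change 1.15, SE 0.15, limma adjusted p = 1.11e-06). Prdx1 rose by 0.67 and Sod2 fell by 0.50 on the log2 scale. Cat rose by 0.61 (limma adjusted p = 0.0353), but the call was lost after rescaling, without D5 replicate 2 (log2 change 0.47, limma adjusted p = 0.129) or 3 (0.64), and without D11 replicate 2 (0.42) or 3 (0.60). The D5 library of replicate 2 had 859 RPM of Sod1 against 336 and 391 RPM in its replicates, 119 RPM of Txn1 against 39.8 and 53.3 RPM, and 323 RPM of Gpx4 against 149.9 and 164 RPM. Without that D5 library, 6 members rose and 1 fell. Markers of somatic cells were higher at D11 than at D5. Summed stroma and theca markers went from 10.5 to 26.0 RPM at D5 up to 219 to 1994 RPM at D11, granulosa markers from 65.8 to 73.8 RPM up to 508 to 858 RPM, and immune markers from 11.6 to 13.8 RPM up to 40.5 to 542 RPM. Their part in the changes of Prdx3, Txnip, Prdx1, Sod2 and Cat was not tested.

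Prdx1 and Prdx2 rose at the step from germ cells to oocytes, and Cat and the glutathione peroxidases fell after it. From D11 to D13, a comparison added after the group values had been seen, 6 members rose and 1 fell, against 19.8% and 50.7% of all genes. Of all calls 28.1% were higher, and 44% after rescaling. Prdx2 rose 4.21-fold, from 138, 181 and 135 RPM to 591, 612 and 705 RPM (log2 change 2.07, SE 0.19, limma adjusted p = 9.5e-10). Prdx1 rose 2.64-fold, from 527, 621 and 535 RPM to 1453, 1576 and 1405 RPM (log2 change 1.40, SE 0.16, limma adjusted p = 3.87e-08). In both genes every D13 library was above every D11 library. Sod1 (log2 change 0.94), Gpx1 (0.76), Gpx4 (0.68) and Txnip (0.34, overlapping) also rose. The call on Txnip was lost without D11 replicate 1 (0.22) or 2 (0.37) or D13 replicate 1 (0.30) or 2 (0.31). Cat, at 34.4, 59.4 and 45.7 RPM at D11 and 39.6, 33.5 and 23.97 RPM at D13, overlapped and did not pass. Sod2 fell by 0.60, and after rescaling, which moved the median of all genes from -0.50 to -0.15, its log2 change was -0.18 and no member fell.

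Markers of somatic cells were lower at D13 than at D11. Summed stroma and theca markers were 223, 1994 and 219 RPM in the D11 libraries and 11.6 to 41.2 RPM at D13, and immune markers went from 66.4, 542 and 40.5 RPM to between 2.37 and 7.37 RPM. Oocyte markers went from 3408 to 7753 RPM up to 33680 to 35326 RPM. The part of somatic RNA in the D11 values was not tested. Without D11 replicate 2, the library with the highest stroma and immune sums, 5 members rose and 1 fell from D11 to D13 (Txnip no longer passed), and Prdx2 rose by 2.21 on the log2 scale.

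From D13 to D20, also added after the group values had been seen, 1 member rose and 8 fell, against 20.6% and 25.5% of all genes; 1 rose and 7 fell after rescaling. Of all calls 44.6% were higher, and 57.3% after rescaling. Cat fell 10.2-fold, to 2.04, 3.75 and 3.69 RPM (log2 change -3.00, SE 0.23, limma adjusted p = 2.61e-10). D15 and D17 lay between, at 10.2 to 12.1 RPM and at 6.62 to 6.98 RPM, with no overlap between successive days from D13 on. Gpx1 fell 4.77-fold, from 191, 172 and 147 RPM to 32.9, 39.3 and 34.7 RPM (log2 change -2.22, SE 0.22, limma adjusted p = 1.46e-08). Gpx4 fell from 291, 290.4 and 278 RPM to 84.5, 128 and 91.2 RPM (log2 change -1.52, SE 0.20, limma adjusted p = 1.19e-06). Prdx3 (-1.34), Sod2 (-1.25), Sod1 (-1.07), Txn1 (-0.83) and Prdx1 (-0.63) fell too, with the call on Txn1 lost after rescaling and without D13 replicate 1 (-0.73). Prdx2, at 587, 785 and 614 RPM on D20, overlapped with D13 and did not pass, and Txnip rose to 604, 420 and 586 RPM (log2 change 0.69, limma adjusted p = 0.000491). Stroma and theca markers were already at most 41.2 RPM at D13, and granulosa markers were 235 to 267 RPM at D13 and 450 to 467 RPM at D20.

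Over the whole second phase, from D11 to D20, 3 members rose and 6 fell, where 22.5% and 55.1% of all genes did. Rescaling, which moved the median of all genes from -0.66 to -0.16 and the share of calls that were higher from 29% to 46.2%, left 3 rising and 4 falling: Gpx4 (log2 change -0.83, then -0.21) and Txn1 (-0.92, then -0.30) no longer passed. Cat (-3.51), Sod2 (-1.85), Prdx3 (-1.56) and Gpx1 (-1.46) fell and Prdx2 (2.12), Txnip (1.03) and Prdx1 (0.77) rose under both scalings. Without D11 replicate 2 the counts were the same and the log2 change of Cat was -3.32.

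The other genes of the pathway from D13 to D20 differed by list, where 20.6% of all genes rose and 25.5% fell. In the superoxide, metal and radical defence list 8 of 12 fell and none rose (7 and none after rescaling), among them Ccs, from 62.8 ± 16 to 17.7 ± 3.7 RPM, and Park7, a redox-sensitive chaperone, from 286 ± 21 to 91.6 ± 18 RPM (SD, n = 3). Of the thioredoxin, peroxiredoxin and glutaredoxin list 10 of 22 fell and 3 rose (7 and 3 after rescaling). Prdx4 fell from 49.9 ± 12 to 5.66 ± 0.47 RPM. In the NRF2 pathway and NADPH supply 10 of 22 fell and 1 rose (8 and 3 after rescaling), and among other glutathione peroxidases and transferases 7 of 17 fell and none rose (6 and none). Glutathione synthesis and recycling went both ways, with 5 of 12 falling and 2 rising (4 and 4 after rescaling). Within it Gsr fell from 55.7 ± 9.1 to 9.89 ± 0.67 RPM. In the TXNIP family 3 of 7 rose and 2 fell (4 and 2 after rescaling), and of 10 selenoprotein synthesis genes 1 rose and 2 fell (2 and 2).

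The end of the culture was set against both sizes of P6 oocytes. The D20 libraries are common to both comparisons, which also differ in strain and culture at once. Against small P6 oocytes all 10 members passed, 4 higher and 6 lower at D20, where 23.4% and 43.4% of all genes were; after rescaling 4 were higher and 5 lower. Of all calls 35.1% were higher, and 53% after rescaling. Cat was 10.5-fold lower at D20 (log2 change -3.06, SE 0.22, limma adjusted p = 1.32e-16), and Prdx2 was 5.32-fold higher (log2 change 2.39, SE 0.17, limma adjusted p = 1.41e-16). Prdx3 (-1.64), Gpx4 (-1.42), Sod2 (-1.06), Sod1 (-1.01) and Gpx1 (-0.97, lost after rescaling) were lower at D20. Prdx1 (1.21), Txn1 (0.60) and Txnip (0.46) were higher, the libraries of Txnip overlapping. The call on Txn1 was lost without P6 small replicate 1 (0.46).

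Against large P6 oocytes no member passed by limma, edgeR or DESeq2, and none had an unadjusted limma p under 0.05; 14.2% of all genes passed the same limma test, with 67.7% of calls higher and 54.9% after rescaling. The log2 changes lay between -0.33 and 0.30, and their 95% intervals between -0.77 and 0.65, so differences within these bounds remain possible. Cat was at 2.04, 3.75 and 3.69 RPM at D20 and at 3.35, 4.74 and 4.40 RPM in large P6 oocytes, which overlap. Sod1 was at 408, 555 and 447 RPM against 492, 503 and 439 RPM, and Gpx4 at 84.5, 128 and 91.2 RPM against 103, 102 and 99.96 RPM, which overlap as well. Prdx2, at 587 to 785 RPM against 502 to 558 RPM, did not overlap, nor did Gpx1 or Txn1. In the same comparison 3 of the 22 thioredoxin, peroxiredoxin and glutaredoxin genes were higher and none lower, and none of the 12 superoxide, metal and radical defence genes passed (after rescaling 3 and 1, and 0 and 2). The other 5 pathway lists had 1 to 4 genes higher and 0 to 3 lower.

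**Figure D4:**
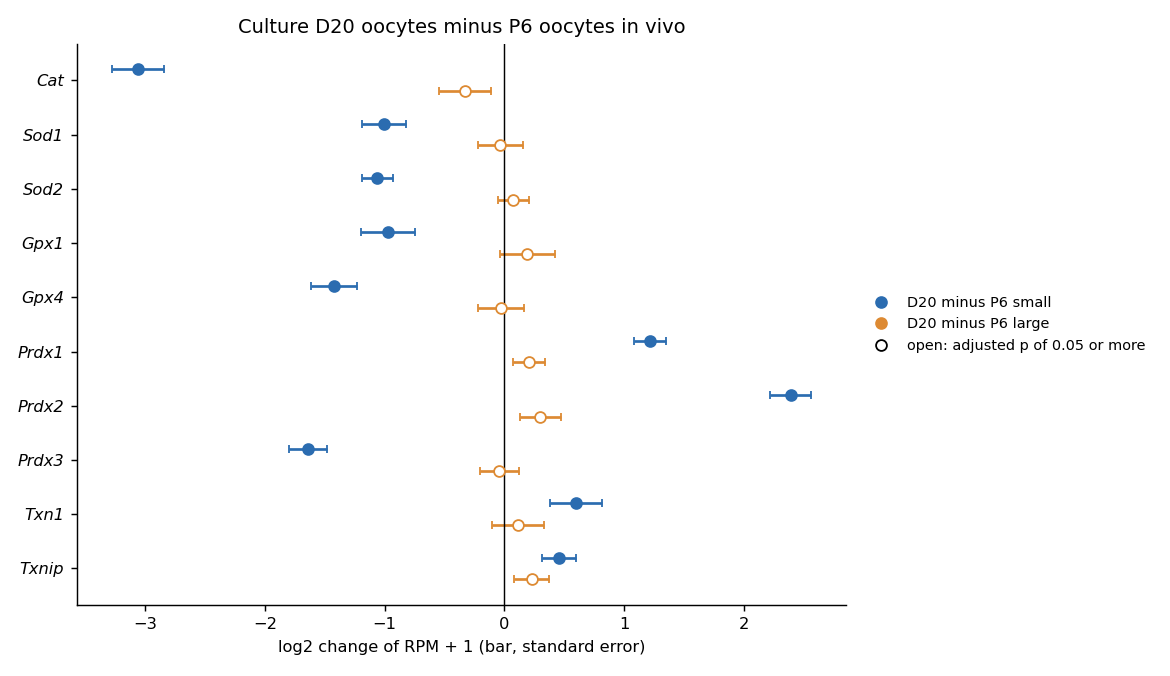
Log2 change of each member in D20 cultured oocytes relative to small (blue) and large (orange) P6 oocytes in vivo, with SE as bars and open circles where the adjusted p is 0.05 or more. The values against large oocytes are all open and lie between -0.33 and 0.30, while those against small oocytes reach -3.06 for Cat and 2.39 for Prdx2.

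At D21 the labels were first checked on Foxo3. All 6 Tg libraries had 267 to 367 RPM of Foxo3 and all 6 WT libraries 44.8 to 128 RPM. Among 20 listed HIF targets, which respond to low oxygen, 7 were higher and 1 lower in WT hypoxia than in WT normoxia (6 and 1 after rescaling), with Ldha at 199 ± 62 against 27.5 ± 3.0 RPM (SD, n = 2). Over all genes 15.9% were higher and 6.55% lower. Granulosa markers summed to 189 and 227 RPM in the WT hypoxia libraries and to 702 and 527 RPM in WT normoxia, and to 136 to 202 RPM in Tg hypoxia and 462 to 527 RPM in Tg normoxia. Their part in the results below was not tested.

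In WT oocytes 2 members, Prdx2 and Txn1, were lower in hypoxia and none higher, against 6.55% lower and 15.9% higher over all genes. Of all calls, 70.9% were higher, and 48.9% after rescaling. Rescaling left both member counts the same. Prdx2 was at 409.7 and 436 RPM in hypoxia and at 620.0 and 960.3 RPM in normoxia (log2 change -0.87, SE 0.22, limma adjusted p = 0.0236). Txn1 was at 37.7 and 39.0 RPM against 55.2 and 131 RPM (log2 change -1.13, SE 0.36, limma adjusted p = 0.0463). In both genes the hypoxia libraries were below both normoxia libraries. Prdx1, at 716 and 714 RPM against 880.4 and 1539 RPM, did not pass (log2 change -0.70, 95% interval -1.27 to -0.13, limma adjusted p = 0.0733), nor did Gpx1, at 122 and 110.1 RPM against 129.9 and 219.9 RPM (log2 change -0.54, limma adjusted p = 0.136). The other 6 members overlapped or differed by less: Cat was at 28.9 and 25.3 RPM in hypoxia and 24.4 and 17.7 RPM in normoxia, and Sod2 at 52.3 RPM in both hypoxia libraries and 49.4 and 76.0 RPM in normoxia.

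These counts depended on WT normoxia replicate 2. It had 1431 RPM of Sod1 and 361 RPM of Gpx4 against 786 and 197 RPM in replicate 1, and 271 RPM of Txnip against 474 RPM. It also had 94.2 RPM of immune markers against 2.83 RPM and 43337 RPM of oocyte markers against 34033 RPM. Without it no member passed, and the log2 changes were -0.55 for Prdx2 and -0.51 for Txn1. Without replicate 1, 6 members were lower and 1 higher in hypoxia. That fit leaves replicate 2, which stands apart from replicate 1, as the only WT normoxia library, and it is assumed to vary like the libraries of the other groups. WT replicate 1 with no oxygen label was closer to WT normoxia replicate 2 than to its own replicate (chi-square per gene of the recovered reads 20.1 and 29.7). It had 37689 RPM of oocyte markers, against 28803 RPM in its own replicate. Leaving out either hypoxia library also left no member lower.

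In Tg oocytes no member passed between hypoxia and normoxia by limma, edgeR or DESeq2, none had an unadjusted limma p under 0.05, and 1.02% of all genes passed. Prdx2 was at 406 and 403 RPM in hypoxia, below its 474 and 520.1 RPM in normoxia. The log2 changes lay between -0.30 and 0.32. The 95% intervals of the 10 members together ran from -1.10 to 0.96. The difference between the Tg and WT responses to hypoxia passed for no member and for 0% of all genes by limma; no member had an unadjusted limma p under 0.05, edgeR called none and DESeq2 called none. Its largest value was that of Txn1, 0.83 on the log2 scale (95% interval -0.30 to 1.95). Without WT normoxia replicate 2 it was 0.21, and without replicate 1 it was 1.44. Each of these fits leaves a single WT normoxia library.

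Between genotypes in normoxia no member passed by limma or edgeR, 4 had an unadjusted limma p under 0.05, and DESeq2 called 4 lower in Tg; 0.00695% of all genes passed by limma. The largest differences were those of Txn1, at 42.9 and 44.2 RPM in Tg against 55.2 and 131 RPM in WT (log2 change -0.95, 95% interval -1.75 to -0.16), and Prdx1, at 637 and 714 RPM against 880.4 and 1539 RPM (log2 change -0.79, 95% interval -1.35 to -0.22). Without WT normoxia replicate 2 the log2 changes were -0.33 and -0.38. Between genotypes in hypoxia no member passed by limma, edgeR or DESeq2 and none had an unadjusted limma p under 0.05, with log2 changes from -0.13 to 0.21; 0.00695% of all genes passed. In the groups with no oxygen label no member passed by limma, edgeR or DESeq2, 3 had an unadjusted limma p under 0.05, and 6.85% of all genes passed by limma, with 91.2% of calls higher and 69.1% after rescaling. There Cat was at 32.8 and 40.7 RPM in Tg and 28.7 and 18.46 RPM in WT (log2 change 0.64, limma adjusted p = 0.129). Prdx2 was at 448 and 466 RPM against 836 and 569.8 RPM (log2 change -0.59, limma adjusted p = 0.112), and Prdx1 at 608 and 634 RPM against 1180.3 and 784 RPM (log2 change -0.63, limma adjusted p = 0.133).

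**Figure D5:**
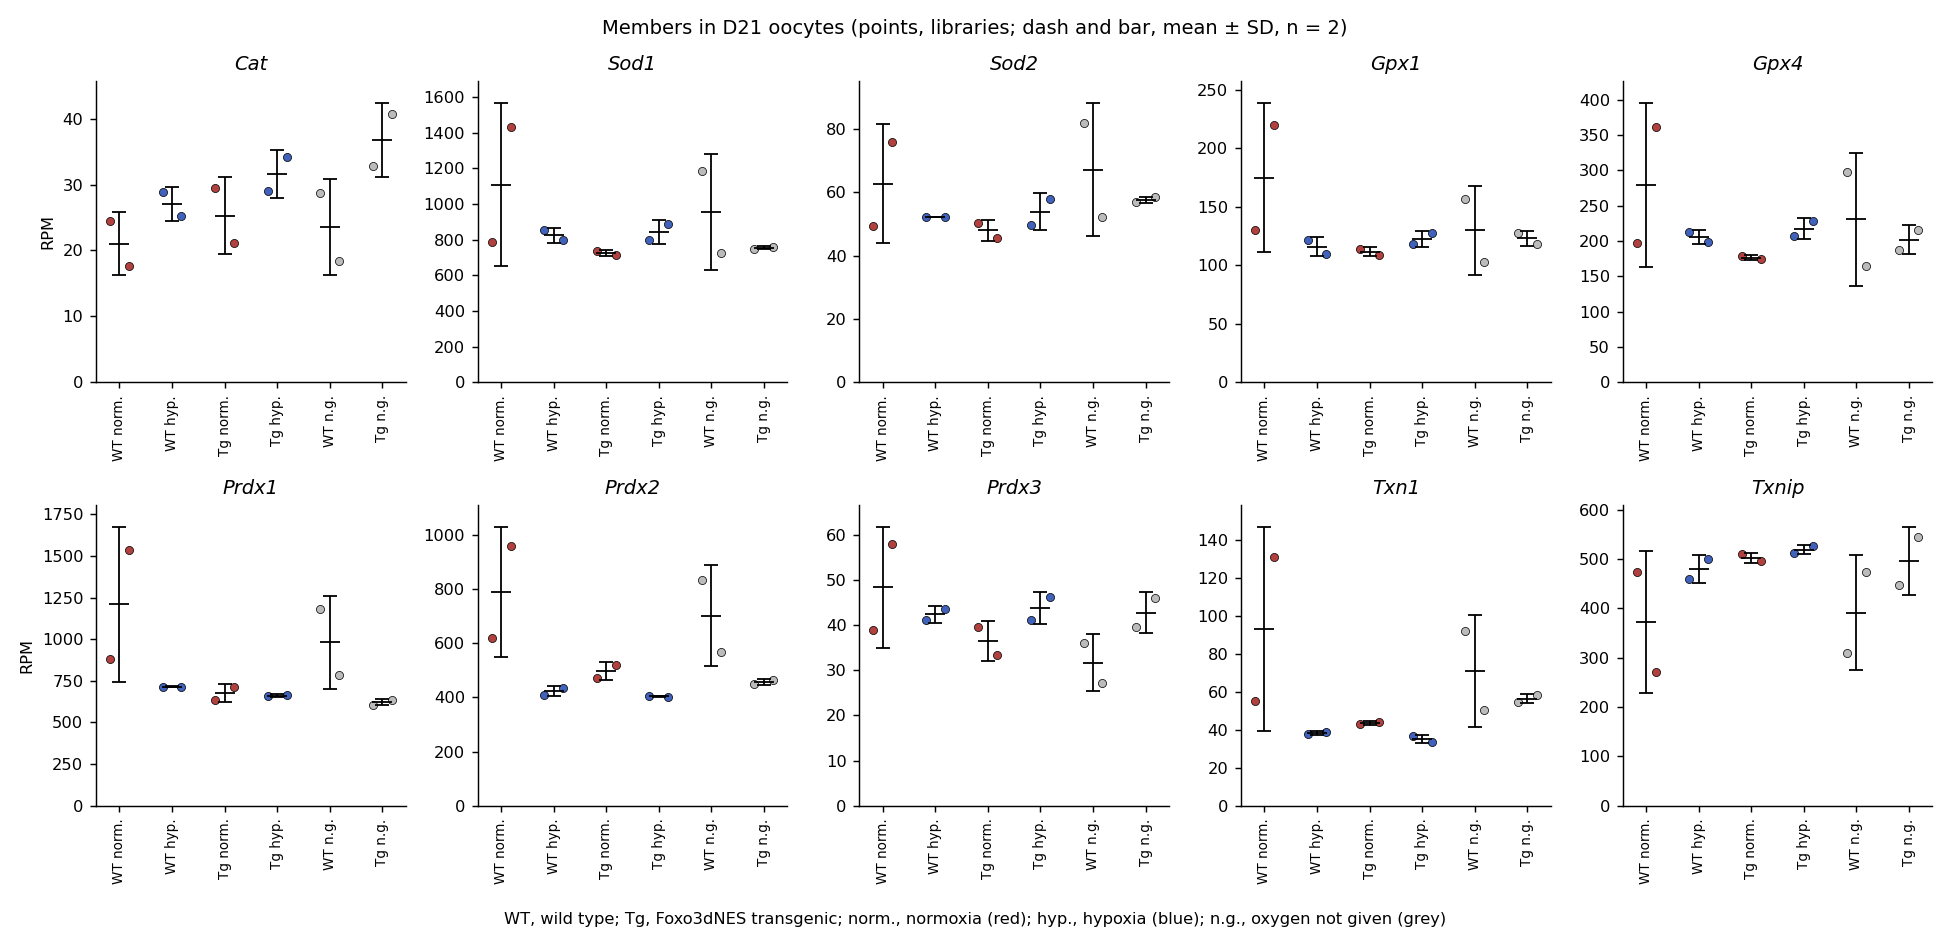
Level of each member in RPM (linear axes from 0) in the 6 groups of D21 oocytes, with both libraries as points and the mean ± SD (n = 2) as dash and bar. In the WT normoxia group, which has wide bars, replicate 2 is above replicate 1 in 8 of the 10 members, a share not counted over all genes. The Tg groups in normoxia and hypoxia lie close together.

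Levels of Cat and Gpx1 at D21 were above those at D20, although the sets were not compared by a test. Cat was at 17.7 to 40.7 RPM in the 12 D21 libraries and at 2.04 to 3.75 RPM in the 3 D20 libraries, and Gpx1 at 103 to 219.9 RPM against 32.9 to 39.3 RPM. The ranges of both genes did not overlap. How many of all genes were apart in this way was not counted, and day and set cannot be told apart here. Prdx2, at 403 to 960.3 RPM at D21 and 587 to 785 RPM at D20, overlapped.

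The other genes of the pathway in WT hypoxia were not tested without WT normoxia replicate 2. Over all genes 15.9% were higher and 6.55% lower in WT hypoxia than in WT normoxia. Counts such as 3 and 2 of 22 are near these shares. In WT hypoxia 8 of 17 other glutathione peroxidases and transferases were lower than in normoxia and none higher, before and after rescaling. Gstm2 was at 3.03 ± 0.11 RPM in hypoxia and 60.7 ± 11 RPM in normoxia, and Gstm1 at 5.18 ± 0.058 and 51.4 ± 8.3 RPM (SD, n = 2). Gsr was higher in hypoxia, at 66.4 ± 9.3 against 34.2 ± 3.9 RPM. Of the 22 genes of the thioredoxin, peroxiredoxin and glutaredoxin list 3 were higher and 2 lower (3 and 4 after rescaling), and of the 22 of the NRF2 pathway and NADPH supply 3 were higher and 4 lower (3 and 5 after rescaling). Glutathione synthesis and recycling had 3 of 12 higher and 1 lower (1 and 2 after rescaling), and superoxide, metal and radical defence 2 of 12 higher and 3 lower (1 and 5). Nfe2l2, which encodes NRF2, was at 12.4 ± 0.11 RPM in hypoxia and 30.5 ± 12 RPM in normoxia.

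Across the 24 group means, the members most alike were Gpx1 and Gpx4 (Pearson's r = 0.875 of log2(RPM + 1)), and the least alike were Sod2 and Txnip (r = -0.751). Among 10452 candidate genes the closest to Prdx2 were Dppa5a, Rac3 and Arpc1b (r = 0.97 each). Dppa5a ran from 13.9 RPM at E16.5 to 1159 RPM in WT D21 normoxia. The closest to Gpx1 were Cstb (r = 0.926), Echdc2 (r = 0.926) and Tmem180 (r = 0.900). These correlations describe group means that share libraries and stages, and carry no test.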

How the data were processed

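RNA-seq was measured in 66 libraries of poly(A)+ RNA (directional kit, 12 PCR cycles, per the labels' protocols). The authors deposited 1 table of RPM values (reads per 1000000 reads), which per the values has the same total in each library and is not divided by gene length. The submitters' processing notes name TopHat2, Bowtie2 2.0.13, featureCounts 1.5.1, R 3.4.4 and the build mm10, with no role. The annotation and strand setting are not given in the sources used here. Of all values, 100% were whole multiples of 1 read within 0.01, so reads were recovered, and 3 reads correspond to 0.129 to 0.619 RPM.

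limma 3.58.1 (R 4.3.3) was fitted with a trend to log2(RPM + 1), pseudocount 1, over genes with a mean of at least 1 RPM in at least 1 group. There was 1 fit each for the in vivo, the D5 to D20 and the D21 libraries, and a joint fit of 54 libraries for D20 against P6. Tests were two-sided with Benjamini-Hochberg adjustment over all genes kept, at 0.05. Alternatives were pseudocounts of 0.1 and 5, no filter or one at 10 RPM, median-of-ratios rescaling, edgeR 4.0.16 and DESeq2 1.42.0 on the recovered reads, 1 fit of all 66 libraries, a replicate block, and leaving out each replicate. The members and gene lists were chosen with earlier results of these data known. The comparisons of E16.5 with E14.5, D13 with D11 and D20 with D13 were added after the data were seen.

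All members are described. From each list and comparison the text names at most 3 genes that passed, by size of change, whose groups do not overlap and whose higher mean is at least 20 RPM. The 3 genes most like each of the 2 members of widest range are also named. In a test on simulated data for P6 small minus P6 large (14355 genes), 49.3% of changes of 1.5-fold, 83.6% of 2-fold and 98.5% of 4-fold were recovered. For WT hypoxia minus WT normoxia (14121 genes) the shares were 2.99%, 46.3% and 98.5%. Each simulation changed only 66 or 67 genes per fold, all above a minimum level, and no other gene differed between groups. In the real comparisons far more genes passed, so these shares may not carry over to them.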

Additional observations from a re-analysis of the deposited data

Results flagged for a closer look

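The difference between small and large oocytes was larger at P6 than at P4 for Cat, by 1.17 on the log2 scale (limma adjusted p = 0.0101), and for Gpx1, by 1.24 (limma adjusted p = 0.0145). Both are listed here because a test of the difference between the ages passed, and both are described with their libraries in the report.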

How the results depend on the processing

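Of the 88 results of members that passed the test, none reversed its direction in any alternative. Of their 1328 alternative values, 1262 kept both direction and call, and 20 of the 88 lost the call in at least 1 setting. The count of members higher in small P4 oocytes, 5 with limma, was 2 after rescaling, 3 with edgeR and 2 with DESeq2. For the difference between the size effects at P6 and P4, DESeq2 called 1 member lower, and leaving out single libraries gave 1 to 3 higher. The members lower in WT hypoxia, 2 with limma, were 0 with no filter, 4 with DESeq2 and 1 with the replicate block; leaving out single libraries gave 0 to 6 lower and 0 to 1 higher. Between genotypes in normoxia, DESeq2 called 4 members lower and the fit of all 66 libraries 3, and single libraries left out gave 0 to 7 lower and 0 to 1 higher. Between genotypes with no oxygen label, the fit of all 66 libraries called 2 lower, and single libraries left out gave 0 to 2 (2 without WT replicate 2). For the difference between the Tg and WT responses, leaving out single libraries gave 0 to 4 higher. The members that fell from D11 to D13, 1 with limma, were 2 with pseudocount 5, with all 66 libraries and with the replicate block, 0 after rescaling, with edgeR and with DESeq2, and 1 to 2 with single libraries left out. The causes were not tested.

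Replicate numbers paired the samples weakly at most: the correlations of same-numbered deviations lay between -0.165 and 0.145. No comparison of groups of 3 had all 3 pairs above 0.1. In Tg normoxia minus WT normoxia the correlation was 0.122. With 2 libraries a group both pairs have the same value by construction, so this is a single observation. In D13 minus D11 each library was closest to its own number, at 0.036 to 0.099. Over all genes, limma called 2295 higher and 942 lower in WT hypoxia, against 1468 and 1532 after rescaling and 2197 and 2522 with DESeq2. In Tg hypoxia it called 22 and 125, against 32 and 222 after rescaling, 56 and 309 with edgeR and 256 and 788 with DESeq2. Between genotypes it called 1 and 0 in normoxia, where DESeq2 called 907 and 755, and 899 and 87 with no oxygen label, where edgeR called 1 and 0 and DESeq2 1028 and 576. For the size difference between ages it called 906 and 406, against 484 and 828 after rescaling. With 2 libraries a group and as few as 4843643 reads, the D21 comparisons have the least precision.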
